A study of Drosophila melanogaster with 4 samples.

Results

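The NK homeobox cluster is a run of homeobox genes on chromosome arm 3R that encode transcription factors of the NK and related classes. The cluster was taken as the interval of 3R from 17190000 to 17350000 on release 5 of the *Drosophila melanogaster* genome, and its members are all CBP-bound regions that touch this interval. There were 6 such regions of 1939 in *gd7* embryos and 8 of 3013 in wild-type embryos. CBP (nejire in flies) is a transcriptional co-activator with histone acetyltransferase activity, and its binding was measured by ChIP-seq, in which DNA fragments recovered with an antibody to CBP are sequenced, in embryos aged 2 to 4 hours. The *gd7* embryos came from mothers homozygous for *gd7*, so that Dorsal stays out of the nuclei and the whole embryo takes on a dorsal ectoderm fate. The wild-type embryos came from *w1118* flies and hold presumptive mesoderm, neuroectoderm and dorsal ectoderm. For each genotype the DNA of about 10 immunoprecipitations made up a single CBP library, which was set against 1 input library of the same genotype, so no difference below has a replicate check and no p-value is given. Both libraries came from chromatin of whole embryos, so CBP bound in fewer cells and less CBP bound per cell cannot be told apart.

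The genes that define the cluster act mostly in the mesoderm. *tin* (*tinman*) is required for the heart and the dorsal mesoderm, and *bap* (*bagpipe*) for the visceral mesoderm. The *ladybird* genes *lbe* and *lbl* give identity to subsets of muscle and heart cells, and *slou* (*slouch*) to subsets of muscle founder cells. *C15*, a homeobox gene of the Tlx/Hox11 class, acts outside the mesoderm, in the amnioserosa and dorsal ectoderm, where Dpp signaling turns it on. Dpp from the dorsal ectoderm also maintains *tin* and helps to activate *bap* in the underlying dorsal mesoderm. In the annotation of release 6 all 6 genes were found, in the order *tin*, *bap*, *lbl*, *lbe*, *C15*, *slou* along the arm, so that the low-coordinate end of the interval lies towards *tin* and the high-coordinate end towards *C15* and *slou*. Another 6 protein-coding genes, *Ugt49B2*, *CG7907*, *CheB93a*, *CheB93b*, *Fancm* and *sp3*, lie between them. From the first to the last of the 6 homeobox genes the release 6 map measures 178 kb, longer than the interval of 160.0 kb. If distances are alike in both releases, the interval cannot hold all of them whole, whereas the genes without *slou* measure 134 kb. No release 5 annotation was used here, so regions are given by position and not by gene, and regions of mesodermal genes were not compared with those of the Dpp-responsive *C15*.

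The value of a region is its log2 enrichment of CBP over input, averaged over the highest 5 consecutive values in it. A region was listed where the signal was among the highest 5% of that genotype over at least 200 bp. The lowest listed value was 1.93 in *gd7* and 1.88 in wild-type, and what lies below is not known from the lists. The files hold no read counts, so the depth behind a value and its counting error are unknown. The authors did not scale the libraries to each other.

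The lists held more CBP regions per length in the cluster than on the rest of 3R in both genotypes. The density was 3.75 regions per 100 kb in the cluster and 1.73 on the rest of 3R in *gd7*, and 5.0 against 2.61 in wild-type. These densities rest on 6 and 8 regions, of which 2 and 4 lay within 1 stretch of 5110 bp, and they have no measure of error. The regions covered 2940 bp of the interval in *gd7* and 3080 bp in wild-type, which is 1.84% and 1.93% of its length. On the rest of 3R the covered share was 1.00% in *gd7* and 1.23% in wild-type. The mean value over the cluster was 2.70 in *gd7* and 2.99 in wild-type, beside 2.65 and 2.54 over the whole lists. The median was 2.46 in *gd7*, below the 2.53 of the whole *gd7* list, and 2.57 in wild-type, above the 2.40 of the whole wild-type list. The covered length was thus nearly equal in the genotypes, but it lay in part at different places. Only 1050 bp were covered in both, 35.7% of the covered bases in *gd7* and 34.1% in wild-type, where the shares over the whole lists were 50.1% and 40.9%.

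**Figure D1:**
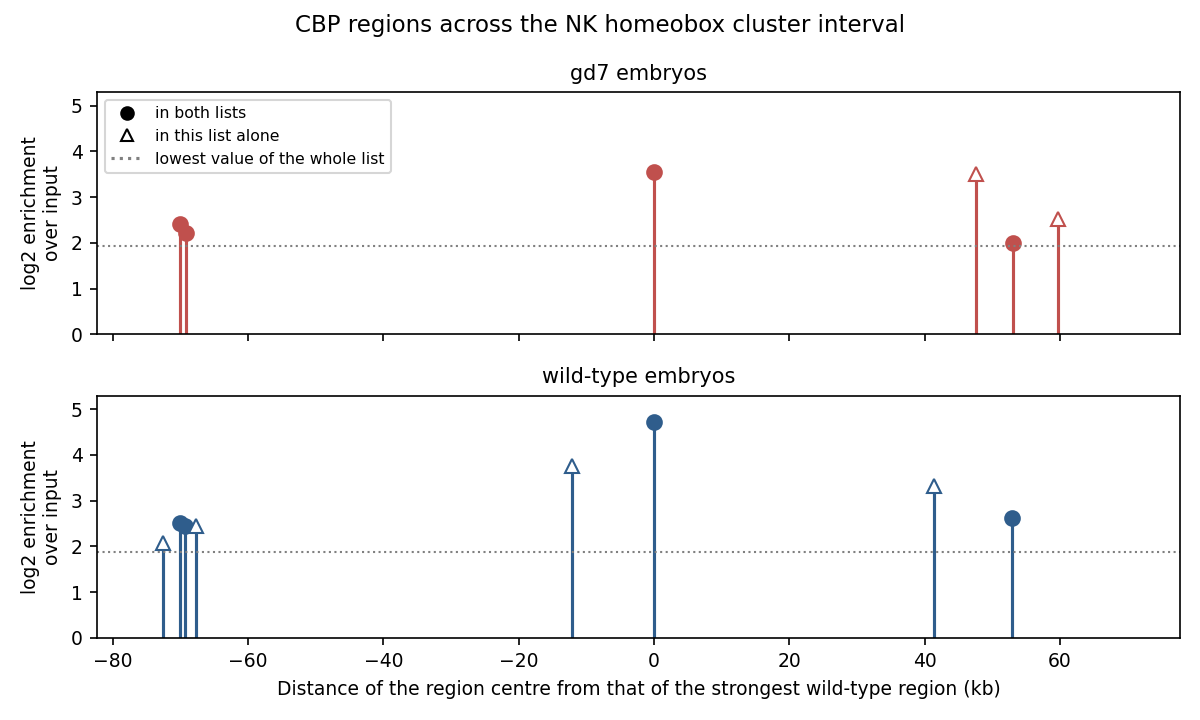
CBP regions across the cluster interval in *gd7* embryos (top) and wild-type embryos (bottom), each at its centre, in kb from the centre of the strongest wild-type region, with its log2 enrichment over input as height. Filled circles are regions in both lists, open triangles are regions in that list alone, and the dotted line is the lowest value of the whole list. Around the strongest region both genotypes have a peak, while 2 regions at the right are found in *gd7* alone and 4 regions in wild-type alone.

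Taking both lists together, the cluster held 10 distinct CBP sites, 4 in both genotypes, 2 in *gd7* alone and 4 in wild-type alone. Of the *gd7* regions, 4 of 6 overlapped a wild-type region by at least 1 bp (66.7%, exact 95% Clopper-Pearson interval 22.3 to 95.7%, for counting error alone), beside 62.7% of the whole *gd7* list. Of the wild-type regions, 4 of 8 overlapped a *gd7* region (50%, 15.7 to 84.3%), beside 40.4% of the whole wild-type list. Both shares are near those of the whole lists, and these intervals would hold much lower and much higher shares. The sites fell into 6 stretches, when regions less than 5 kb apart are joined, and 2 long runs without any listed region lay between them. One, of 55.2 kb, followed the first stretch, and the other, of 40.9 kb, followed the strongest region.

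The strongest CBP region of the cluster lay near its middle and was bound in both genotypes. In *gd7* it lay from 17272045 to 17272465 with a value of 3.55, and in wild-type from 17271905 to 17272465 with 4.73. It ranked 132 of 1939 in *gd7* and 4 of 3013 in wild-type. The *gd7* region lay wholly inside the wild-type one and ended at the same base, and the centres were 35 bp apart. The difference was -1.18 on the log2 scale, so that enrichment in *gd7* was 0.441 of that in wild-type. This is past the 2-fold limit that the study used to class regions. The study took *gd7* values within every wild-type region, whereas differences here exist only for the 1217 shared ones. Of these, 5.92% were more than 2-fold lower in *gd7*, and 3.37% had a more negative difference. Many weak regions cannot fall 2-fold and stay listed in *gd7*, whereas this one stood 2.80 above the lowest *gd7* value. It is also the highest wild-type value of the cluster, so these shares do not measure how rare its fall is. The region was also one of the 4 highest in wild-type, and all 4 were lower in *gd7*. They were picked by a high wild-type value, which favours a lower value in *gd7*, so this count says nothing of the cluster.

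At 12.1 kb before the strongest region, a wild-type CBP region had no counterpart in *gd7*. It lay from 17259935 to 17260355, and its value of 3.75 ranked 94 of 3013. No *gd7* region was listed within 12.1 kb of it, measured between centres. If the signal there was not merely too short to be listed in *gd7*, it was below the lowest *gd7* value, and then at least 1.82 lower on the log2 scale. Among the 94 wild-type regions of this value or above, 13 (13.8%) had no *gd7* region. Of all 1796 wild-type regions without a *gd7* region, 12 had a higher value.

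At the low-coordinate end, towards *tin*, 2 *gd7* and 4 wild-type regions lay within 5110 bp. None of them was among the strong regions of its genotype, since at least 41.9% of the list had higher values than any of them. The first shared region lay from 17202220 to 17202500 in *gd7*, with a value of 2.41, and from 17202115 to 17202500 in wild-type, with 2.51. Both had their centre at 17202290. The difference was -0.10, with 42.1% of all shared regions more negative. The second shared region lay from 17203025 to 17203235 in *gd7*, with 2.22, and from 17202885 to 17203165 in wild-type, with 2.44. Here the centres were 175 bp apart, further than at any other shared site of the cluster, and the difference was -0.22.

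On either side of this pair lay regions of wild-type embryos alone. The outer one, from 17199630 to 17199945, had a value of 2.08. The inner one, from 17204460 to 17204740, had 2.45. They stood only 0.15 and 0.52 above the lowest *gd7* value, so a fall of no more than that size would already take them off the *gd7* list. The nearest *gd7* centres were 2520 bp and 1505 bp away.

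**Figure D2:**
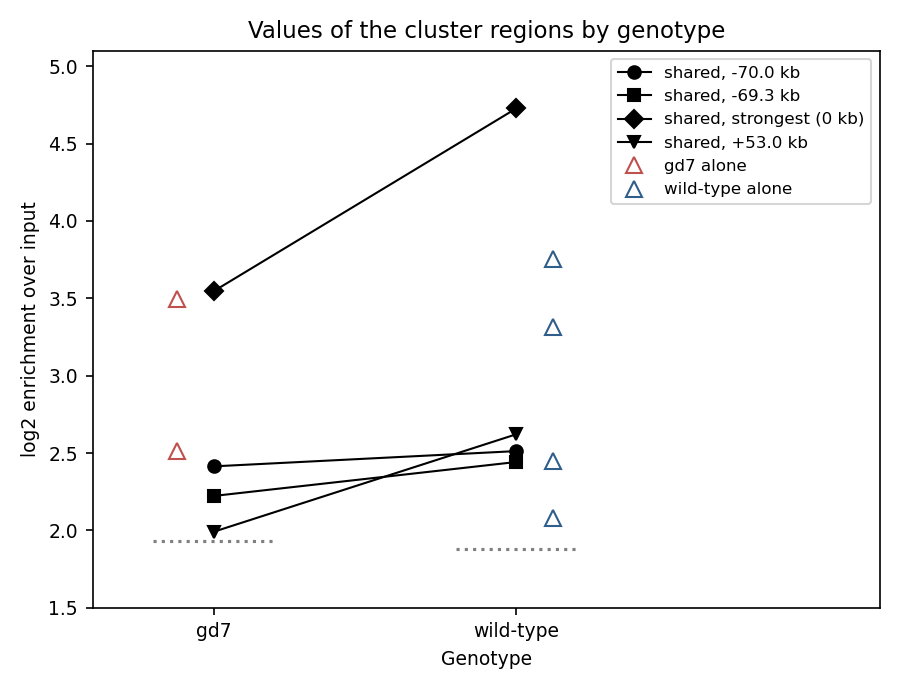
Log2 enrichment over input of the cluster regions in *gd7* (left) and wild-type (right). Lines join the 4 regions found in both lists, labelled by their distance in kb from the strongest wild-type region, open triangles are regions in that list alone, and dotted lines mark the lowest value of each list. All 4 lines rise towards wild-type, most steeply at the strongest region, with 3.55 in *gd7* and 4.73 in wild-type.

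In the high-coordinate part of the interval, towards *C15* and *slou*, 3 regions were listed in *gd7* and 2 in wild-type, between 17313380 and 17332665. They made up 4 sites, and 1 of them was in both lists, too few to set against the shares of 62.7% and 40.4% over the whole lists. In the order along the arm they were a wild-type region, a *gd7* region, the shared site and another *gd7* region.

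Of these, the *gd7* region from 17319470 to 17320310 had a value of 3.50 and ranked 147 of 1939. No wild-type region was listed within 5425 bp of its centre, measured between centres. Unless the wild-type signal was too short to be listed, it was below the lowest wild-type value, at least 1.61 lower on the log2 scale. Among the 724 *gd7* regions without a wild-type region, 13 had a higher value, and 12.6% exceeded the lowest wild-type value by more than 2-fold. The other *gd7* region, from 17331685 to 17332665, had a lower value of 2.51, which is 0.63 above the lowest wild-type value.

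The shared site between them was weak in *gd7*. It lay from 17325245 to 17325455 in *gd7*, with a value of 1.99 that ranked 1899 of 1939. In wild-type it lay from 17325105 to 17325525, with 2.62, ranking 1058 of 3013. The difference was -0.63, within the 2-fold limit, and 16.6% of all shared regions were more negative. The wild-type value stood only 0.69 above the lowest *gd7* value, so a 2-fold fall would have taken the site off the *gd7* list. The *gd7* region covered 50% of the wild-type one.

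The wild-type region of this part, from 17313380 to 17313800, had a value of 3.31 and ranked 251 of 3013. No *gd7* region overlapped it, and the nearest *gd7* centre was that of the region from 17319470, 6.16 kb away. Its value was 1.38 above the lowest *gd7* value. With the region from 17259935, it was one of 2 among the 4 wild-type regions without a *gd7* region that stood more than 2-fold above that value, as did 9.47% of all such wild-type regions.

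The *gd7* regions without a wild-type counterpart were broad, and the shared ones short. The 2 regions in *gd7* alone were 840 and 980 bp long, against 210 to 420 bp for the 4 *gd7* regions that overlapped a wild-type region. Over the whole *gd7* list the order was the reverse, with a median of 385 bp for regions in *gd7* alone and 490 bp for shared ones. Of all 724 regions in *gd7* alone, 8.98% were longer than the first and 5.66% longer than the second. In wild-type the cluster regions ranged from 280 to 560 bp. Their median was 367.5 bp for those without a *gd7* region and 402.5 bp for the shared ones, beside 315 and 525 bp over the whole wild-type list. At each of the 4 shared sites the *gd7* region was the shorter one, by 70 to 210 bp. Over the whole lists the shared regions were also shorter in *gd7*, with medians of 490 bp against 525 bp. A region ended where no further value above the cut-off of its own list lay within 200 bp, so a long region may hold short stretches below it. Length and value are therefore not independent.

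**Figure D3:**
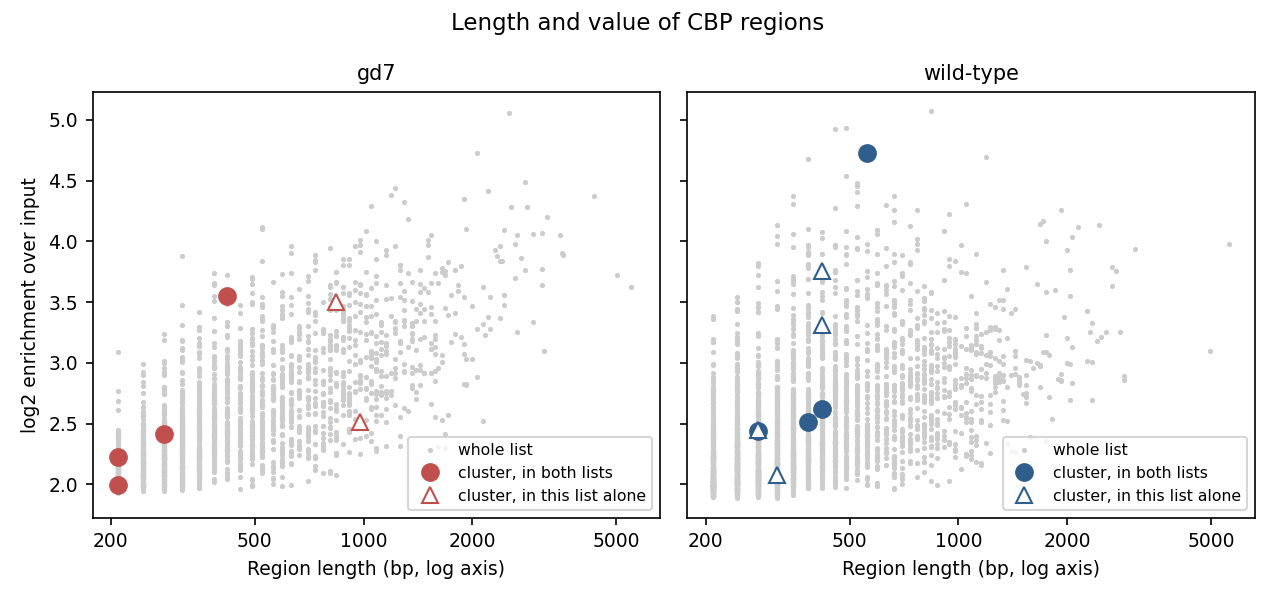
Length in bp (log axis) and log2 enrichment over input of every CBP region, in *gd7* (left) and wild-type (right), with the cluster regions as large symbols (filled circles in both lists, open triangles in that list alone). The regions in *gd7* alone, 840 and 980 bp long, lie to the right of the 4 shared ones, and the strongest wild-type region, at 4.73, lies near the top of its list.

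Where CBP bound in both genotypes, all 4 values were lower in *gd7*. The differences ranged from -1.18 to -0.10, with a median of -0.42, beside a median of 0.06 over all 1217 shared regions and -0.05 over the other 295 shared regions of 3R. Over the whole list, 46.8% of shared regions were lower in *gd7*. Only the strongest region passed the 2-fold limit, and no shared region of the cluster was more than 2-fold higher in *gd7*, where 10.2% of all shared regions were. The other shared wild-type regions stood only 0.58, 0.51 and 0.69 above the lowest *gd7* value. None of them could fall 2-fold and still be shared, so their place within the limit was fixed by the cut-off. Of all shared regions, the middle 50% of differences ran from -0.43 to 0.56, so that the differences at both sites towards *tin* were inside this range. The centres at the shared sites were a median of 35 bp apart, against 70 bp over all overlapping pairs. With 4 shared sites and 1 library per genotype, the direction common to them has no measure of error.

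**Figure D4:**
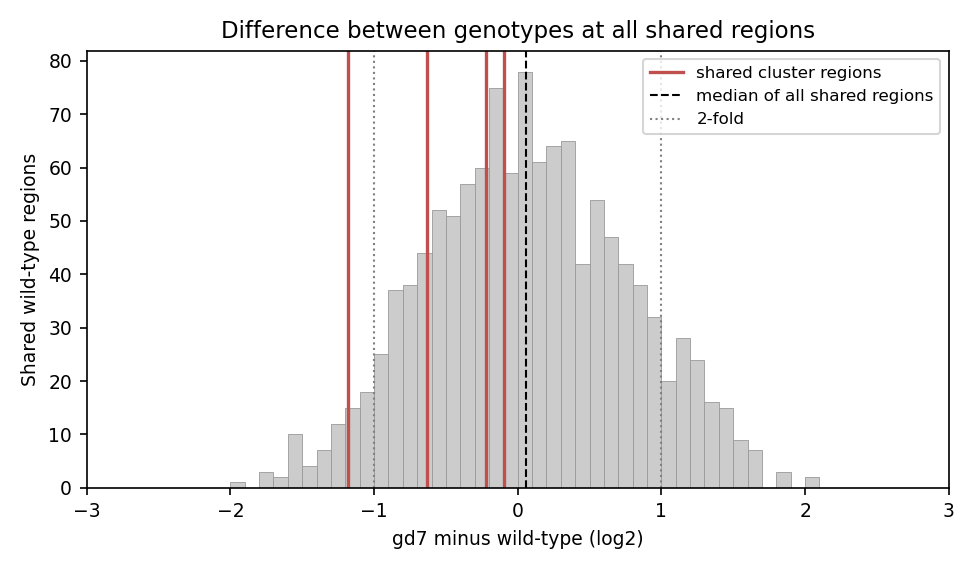
Number of shared wild-type regions by their difference between genotypes, *gd7* minus wild-type on the log2 scale, for all 1217 shared regions (grey bars). Red lines mark the 4 shared cluster regions, the dashed line the median of all, at 0.06, and dotted lines 2-fold differences. The 4 red lines lie from -1.18 to -0.10, below that median.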

How the data were processed

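CBP ChIP-seq and input libraries of *gd7* and wild-type embryos were processed by the authors. They aligned SOLiD reads to release 5 with Bioscope, computed a log2 ratio between ChIP and input, adjusted it for depth, smoothed it and joined the highest 5% of values into regions of at least 200 bp. The deposited log2 values are these region values minus a constant of each list. This constant is the median difference between the supplementary peak table of the study and the deposited values (170 *gd7* and 1999 wild-type regions, largest deviation 5.0e-06), and 1.93 in *gd7* and 1.88 in wild-type were added back.

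Python 3.11.15 was used, with pandas 2.3.3 and numpy 2.4.6 for the overlaps (1 bp or more), matplotlib 3.10.9 for plots and scipy 1.17.1 for exact intervals. Differences were taken at each shared wild-type region by subtracting its value from the highest *gd7* value that overlapped it. The counting was tested on simulated data. Input libraries were used only as part of that ratio, and read depth is not in the files. Gene names and their order came from a RefSeq gene table of release 6, as did the lengths spanned by these genes. None of its coordinates were set against those of the regions.

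The interval, its genes and the alternatives were chosen with earlier results of these data known. The genes named are those of the interval, and every region of it is described. With 1 library per genotype no test was made. Alternatives changed the edges of the interval, the cut-off, the overlap rule, the scale, the direction of the comparison and the value standing for several overlapping regions. Sequences of the regions were not analysed here.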

Additional observations from a re-analysis of the deposited data

How the results depend on the processing

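When only regions of at least 2.5 (log2) were kept in both lists, 3 *gd7* and 5 wild-type regions of the cluster were left in place of 6 and 8. Only the strongest region was then shared, which is 33.3% of the *gd7* and 20.0% of the wild-type regions. Over the whole lists the same limit gave 47.9% and 37.9%. Both cluster shares were thus below those of the whole lists, where without the limit they were above. The cluster shares at this limit lie inside the exact intervals given for the full lists, but those are so wide that this says little. With that limit the difference rests on this 1 region, at -1.18. The other alternatives kept the counts and covered lengths within 1.5 times, the shares within these wide exact intervals and the median difference below 0. That median was -0.48 with the values as deposited and also after subtracting the median of all shared regions, and -0.22 with the interval wider by 50 kb at each end, an alternative chosen after the data were seen. No replicate could be left out with 1 library per genotype. No paired analysis was possible because each genotype has a single CBP library and no test was made. What the lists can show is limited by the cut-off, since a region missing from a list may have been reduced, lost or shorter than the minimum length.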

Other observations

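Outside the interval, the nearest listed regions lay some way off on both sides. On the low-coordinate side the next site, 14.5 kb away, was in both lists, from 17175200 to 17175410 with 2.42 in *gd7* and from 17174780 to 17175480 with 2.57 in wild-type. Further out on this side, 66.2 to 67.4 kb from the interval, *gd7* had regions of 3.83 and 2.36, and a single wild-type region of 4.12 overlapped both. On the high-coordinate side the next listed region, 37.4 kb away, was a weak one in wild-type alone, from 17387405 to 17387615 with 2.10. Beyond it, from 74.4 to 94.9 kb outside the interval, *gd7* embryos had 6 regions with values of 2.29 to 3.72, and wild-type embryos had 7 with values of 2.09 to 3.17. These regions were singled out after their values were seen.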
